A study of Salmo salar with 57 samples.

Results

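Cytochrome P450 1A1 (CYP1A1) was followed in the distal intestine of Atlantic salmon (Salmo salar) with the 2 array probes that carry its name, Ssa_GRASP209155391 and Ssa_S47625152, out of 14841 probes on the array and 12065 that could be tested. The gene was chosen by its measured log2 differences, which were far lower in fish fed soybean meal than in fish fed soybean meal with Saccharomyces cerevisiae. The comparisons of these groups with the fish meal group and with each other are therefore given as a description, without a test. The first probe is named in the choice, and the second carries the same gene name in the probe lists of the study. The RefSeq table of the salmon genome lists 2 genes with the synonym cyp1a. The source sequence of neither probe could be matched to that table, so which of these copies a probe measures is not settled here.

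CYP1A1 is a haem enzyme of the endoplasmic reticulum that oxidises polycyclic aromatic compounds, plant indoles and other lipophilic molecules, as a first step of their removal. In vertebrates, fish included, its transcription is switched on by the aryl hydrocarbon receptor (AHR), a ligand-activated factor that enters the nucleus, pairs with ARNT and binds response elements near the gene. In the gut the enzyme is found in epithelial cells, and in fish it is widely used as a marker of exposure to AHR ligands.

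Each array held RNA from the distal intestine of 1 fish, a non-vaccinated post smolt. Diet FM contained fish meal as the main protein source and was the negative control, and in diet SBM soybean meal, which causes an enteropathy of this segment, replaced part of the fish meal. The other diets contained soybean meal together with a microbial ingredient: the green alga Chlorella vulgaris (CV), or the yeasts Candida utilis (CU), Kluyveromyces marxianus (KM) or Saccharomyces cerevisiae (SC). These diets held less fish meal than SBM and more fish oil than FM and SBM. They therefore differ from SBM in more than the microbial ingredient. There were 10 fish per diet and 7 in the SBM group, 57 fish in all. The SBM group is smaller because the study left out the fish of a tank as outliers. Their histology differed from that of the other SBM tanks and from earlier experiments. The SBM fish that remain were thus kept by their histology. Titles of samples hold only a diet letter, and which letter stands for which diet was read from the histology scores of single fish and the group of 7. Tanks are not part of the labels, so p-values measure the spread between fish without regard to shared tanks.

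The arrays showed 1 colour, and values are log2 of quantile-normalized intensities, so that a difference of 1 is a doubling. They lay on 9 slides and were scanned on 2 days, and no pair of arrays was identical. Dim or uneven spots, 1264 to 3320 on an array, were treated as missing, while both CYP1A1 probes were well above background and unsaturated on all 57 arrays, with no missing value. Their scanner signals ranged from 350 to 3041 and from 489 to 3930, at local backgrounds of 13 to 38 and 12 to 25. The position of an array on its slide went with the diet: all 7 SBM and 9 CV arrays lay in column 3, 9 FM and 9 SC arrays in column 4, 9 KM arrays in column 2 and all 10 CU arrays in column 1. Diet and array column therefore can hardly be told apart, except between FM and SC and between SBM and CV. SBM minus CV, with nearly all arrays in 1 column, was −0.93 (SE 0.25) for the first CYP1A1 probe and −1.01 (SE 0.23) for the second.

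CYP1A1 was lowest in SBM fish and highest on average in FM fish, with the other diets in between. The first probe was at 10.19, 10.54 and 10.84 (lowest, median and highest) in FM, at 9.61, 10.27 and 10.96 in CV and at 9.39, 10.36 and 11.07 in CU. It was at 9.06, 10.42 and 11.36 in KM, at 9.42, 10.21 and 10.97 in SC and at 8.64, 9.45 and 9.83 in SBM. The SBM fish lay below all FM fish, whereas every other diet had fish below, within and above the FM range. The means of the first probe were ordered FM 10.54 ± 0.211 (SD, n = 10), CV 10.34 ± 0.432, KM 10.32 ± 0.726, SC 10.25 ± 0.641, CU 10.22 ± 0.530 and SBM 9.41 ± 0.394 (SD, n = 7). Each neighbouring pair from FM down to CU differed by less than the SD of either group, and only the last step, from CU to SBM, was larger than both SDs.

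The second probe gave a similar picture at a higher intensity, which is no measure of a higher level because probes differ in brightness. It was at 10.82, 11.04 and 11.39 (lowest, median and highest) in FM, at 10.27, 10.98 and 11.54 in CV and at 10.03, 10.87 and 11.32 in CU. It was at 10.03, 10.85 and 11.73 in KM, at 9.83, 10.86 and 11.52 in SC and at 9.11, 10.04 and 10.22 in SBM. Again all 7 SBM fish were below the lowest FM fish, but with this probe no CU fish was above the highest FM fish. The order of the means was FM 11.06, CV 10.94, KM 10.88, CU 10.84, SC 10.78 and SBM 9.93, so CU and SC, which differed by 0.07 with this probe and 0.03 with the first, changed places.

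**Figure D1:**
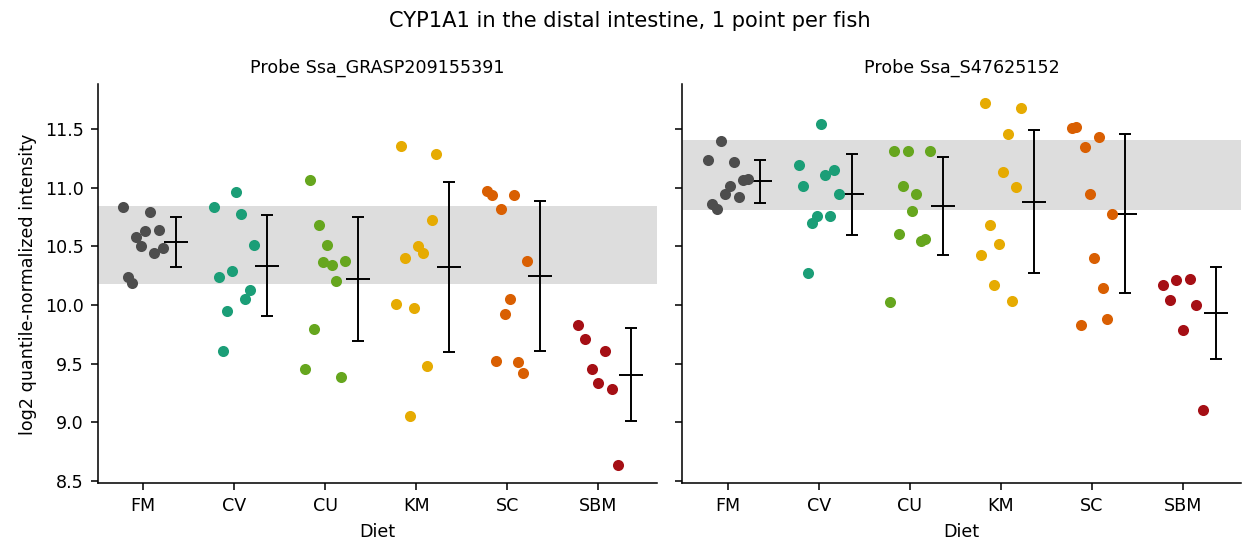
CYP1A1 by diet: log2 quantile-normalized intensity of probes Ssa_GRASP209155391 (left) and Ssa_S47625152 (right), 1 point per fish, with the mean and SD of each diet beside the points and the range of the FM fish in grey. All 7 SBM fish lie below the grey band with both probes, and the SC and KM fish reach from below the band to above it.

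In SBM against FM the first probe had a log2 FC of −1.13 (limma SE 0.25) and the second −1.12 (SE 0.23), which are 0.458 and 0.459 times the FM level. Over all 12065 probes, 2.86% had every SBM fish below every FM fish, as both CYP1A1 probes had. In SC against FM the log2 FC was −0.29 (SE 0.23) and −0.28 (SE 0.21), or 0.819 and 0.825 times the FM level. Directly against SC, SBM was lower by −0.84 (SE 0.25) with the first probe and −0.85 (SE 0.23) with the second. Ordered from the most negative SBM minus SC difference, the probes stood at places 63 and 59 of the 12065, and from the most negative SBM minus FM difference at places 192 and 195. These values chose the gene, and nothing is read from them. The array measured a piece of tissue, in which fewer cells that express the gene and less of its RNA per cell cannot be told apart.

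The difference was also set out within scan days and slides. On the first scan day SBM minus FM was −1.23 with 4 and 5 fish, and on the second it was −1.01 with 3 and 5 fish. SBM minus SC was −0.84 and −0.81 on these days. An SBM fish lay on 7 slides, and with both probes it was below the FM value of its slide on all 7. With the first probe it was below the SC mean of its slide on 5 of the 7, and with the second on 6. The level of single SC fish therefore overlapped with SBM on shared slides, as it did over the whole group.

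The SC fish were spread over a wide range. Sorted by level, 3 SC fish lay between 9.42 and 9.53 with the first probe, 3 between 9.92 and 10.37 and 4 between 10.82 and 10.97. The lowest of these were within the SBM range of 8.64 to 9.83, and 3 were above the highest FM fish. With the second probe, again 3 SC fish lay in the SBM range and 3 above the FM range. The same held for single fish of the other soybean diets: 9 of the 50 fish not fed SBM lay within the SBM range with the first probe, 3 each from CU and SC, 2 from KM and 1 from CV, and none from FM. With the second probe there were 6 such fish, 3 from SC, 2 from KM and 1 from CU, and all 6 were among the 9.

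The choice of the gene did not use the levels in CV, CU and KM, and their differences from FM were tested with limma over all probes. It did use the FM fish, which are the reference here as well. A gene chosen for a fall from FM tends to have high FM values, so these tests are not free of the choice. The first probe had a log2 FC of −0.20 (SE 0.23, 95% confidence interval −0.66 to 0.26) in CV, with 7 of 10 fish below the FM mean. The adjusted p was 0.555. In CU its log2 FC was −0.32 (interval −0.77 to 0.14), with 8 of 10 fish below the FM mean and an adjusted p of 0.446. In KM it was −0.21 (interval −0.67 to 0.25), with 7 of 10 fish below and an adjusted p of 0.544. None of these passed the threshold of 0.05, and the intervals still allow a fall in each diet.

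With the second probe the log2 FC was −0.11 in CV, −0.21 in CU and −0.17 in KM, with adjusted p-values of 0.730, 0.592 and 0.587 from limma. Thus 0 of the 2 probes were called in CV, CU or KM, while over all probes the same test called 17.4% in CV, 5.84% in CU and 16.1% in KM. The lowest unadjusted p of either probe was 0.174 with limma. A permutation test over fish gave 0.102, and no p adjusted over the 3 diets was under 0.306. All of these comparisons, and those of SBM and SC, share the same 10 FM fish.

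KM and CV were not alike on the scan days. With the first probe KM minus FM was −0.75 on the first day (4 and 5 fish) and 0.17 on the second (6 and 5 fish), and CV minus FM was −0.50 and 0.02. In CU the values were −0.25 and −0.38. The difference between days was not tested. With scan day as a block the log2 FC over both days was −0.21 in CV, −0.32 in CU and −0.23 in KM, and no call changed.

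The microbial diets that were not part of the choice were also compared with each other, in 3 pairs. CV minus CU was 0.12 (interval −0.34 to 0.58, adjusted p = 0.778 by limma over all probes), CV minus KM was 0.01 (interval −0.45 to 0.47, adjusted p = 0.999) and CU minus KM was −0.10 (interval −0.56 to 0.36, adjusted p = 0.859). The second probe gave differences of 0.10, 0.06 and −0.04. With array column as a block CU minus KM was −1.07 with the first probe and −0.83 with the second. Column 2 held KM arrays alone, so here the KM value rests on the 1 KM fish in column 1. It is no comparison of the whole KM group. Neither probe was called in any pair, and in these pairs the test called 0.232%, 0.0829% and 3.15% of all probes. With 10 fish per diet, the data still allow differences within these intervals.

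CYP1A1 varied least between FM fish. Its SD there was 0.211 with the first probe and 0.183 with the second. In the other diets the SD of the first probe was 0.432 (CV), 0.530 (CU), 0.726 (KM), 0.641 (SC) and 0.394 (SBM), and that of the second 0.347, 0.421, 0.611, 0.676 and 0.396. The median SD over all probes was 0.344 in FM and 0.290, 0.352, 0.30, 0.280 and 0.243 in the same order of diets. In FM 17.5% of all probes had a smaller SD than the first CYP1A1 probe, and in KM 95.01% did. The ratio of the SD in KM to that in FM was 3.44 for the first probe and 3.33 for the second, and 99.9% of all probes had a smaller ratio than either.

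The spread in CV, CU and KM was compared with that in FM by a permutation test of the mean distance of fish from the median of their diet, a comparison made after the values had been seen. With the first probe this distance was 0.163 in FM, 0.340 in CV, 0.381 in CU and 0.539 in KM. The permutation p-values adjusted over the 3 diets were 0.0943, 0.0975 and 0.0647, so none passed 0.05. With the second probe the distances were 0.143, 0.258, 0.336 and 0.516, and the adjusted permutation p-values were 0.161 in CV, 0.0280 in CU and 0.00294 in KM. With scan day medians taken off, the first probe gave 0.00348 in KM. In SC the distance was 0.560 and 0.572, and in SBM 0.271 and 0.245, with the first and second probe.

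**Figure D2:**
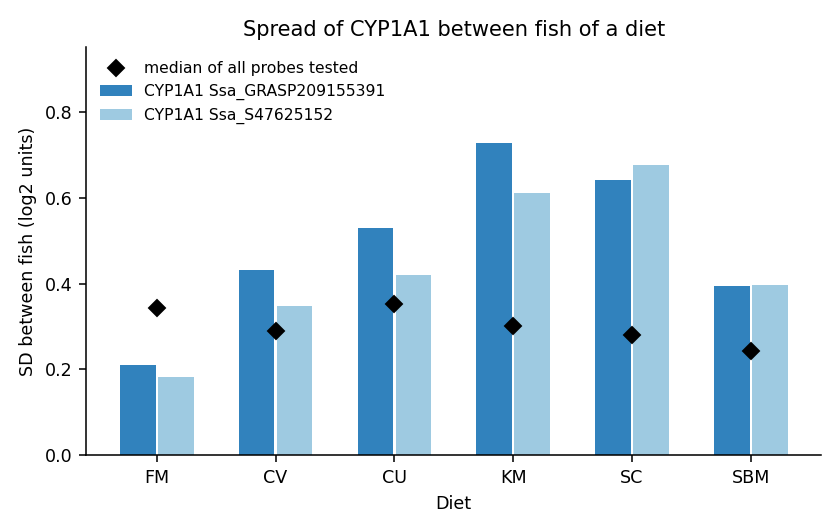
Spread of CYP1A1 between fish: bars give the SD of each CYP1A1 probe within a diet (log2 units, 10 fish per diet and 7 in SBM) and diamonds the median SD of all 12065 probes tested. The bars rise from 0.211 and 0.183 in FM to 0.726 and 0.611 in KM, while the diamonds stay between 0.243 and 0.352.

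Over the 57 fish the probes correlated with r = 0.92, and r was 0.89 for the deviations from the diet means, which leave out the differences between diets. Within diets r ranged from 0.76 in FM, where the fish differed least, to 0.95 in SC. These correlations are descriptions, since both values of a fish come from the same array. The probes were separate spots but not independent readings of a fish.

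**Figure D3:**
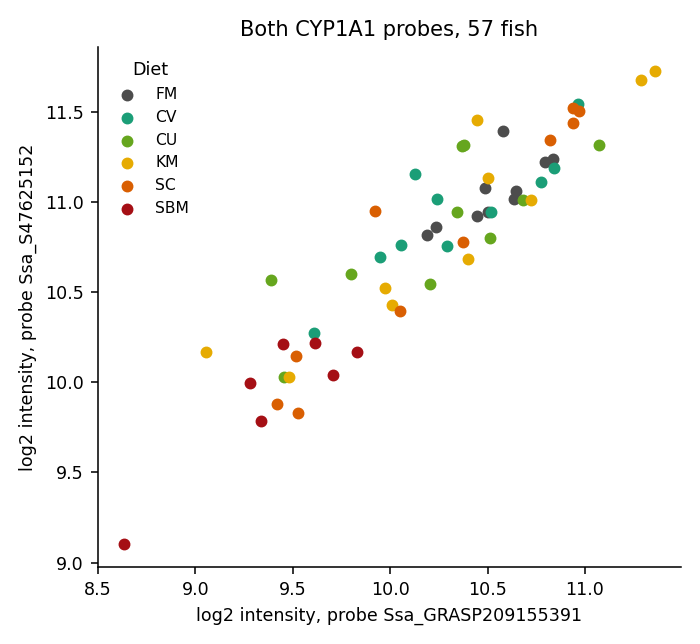
Both CYP1A1 probes in each of the 57 fish: log2 intensity of Ssa_GRASP209155391 on the horizontal axis and of Ssa_S47625152 on the vertical axis, coloured by diet. The SBM fish fill the lower left, and SC and KM fish lie along the whole diagonal (r = 0.92).

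The labels give each fish 4 histology scores, which grade oedema, atrophy, the epithelium and the lamina propria, and CYP1A1 was set against their sum within diets. The sum was 0 in all 10 FM fish, and its median was 8 in SBM (lowest 6), 7 in SC (lowest 1.5), 5.5 in KM, 0.75 in CU and 0 in CV. These scores served to name the diets and are not compared between them. Within CU the first probe had r = 0.33 with the sum (rho = 0.46, n = 10), within KM r = −0.10 (rho = −0.17) and within SC r = −0.39 (rho = −0.37). The permutation p-values were 0.358, 0.772 and 0.30 for r, and 0.176, 0.644 and 0.290 for rho. Adjusted over the 4 diets, those of r were 0.610, 0.772 and 0.610 and those of rho 0.580, 0.859 and 0.580. In CV 8 of the 10 fish had a sum of 0, so the value of r = 0.31 (rho = −0.03, permutation p = 0.458 and 0.933, adjusted 0.610 and 0.933) rests on the other 2, and no value can be given without them. With scan day means taken off, r in CV was 0.69 (rho = 0.51, permutation p = 0.0186 and 0.135, adjusted 0.0742 and 0.403), and 0.11 without the 2 farthest fish. Without the 2 fish farthest from the median sum, r was 0.68 in CU, −0.04 in KM and −0.21 in SC. No relation passed the threshold of 0.05 after adjustment.

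Single fish show the same lack of a common order. Of the 9 fish with CYP1A1 in the SBM range by the first probe, the 3 from SC had score sums of 7, 7 and 8 and the 2 from KM had 7 each. The CV fish and 2 of the CU fish, however, had a sum of 0, and the remaining CU fish had 4. Within SC, the 2 fish with a sum of 1.5 were at 10.37 and 10.97, and the 8 fish with a sum of 6 or more lay between 9.42 and 10.94. With the second probe the 6 fish in the SBM range had sums of 4 (CU), 7 (KM and SC) or 8 (SC), and none had 0. The CU and CV fish with a sum of 0 lay at 10.60, 10.57 and 10.27 there, above the highest SBM fish at 10.22. A fish with low CYP1A1 could thus have a normal or a changed histology by the first probe only. With high scores CYP1A1 was found both low and high.

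**Figure D4:**
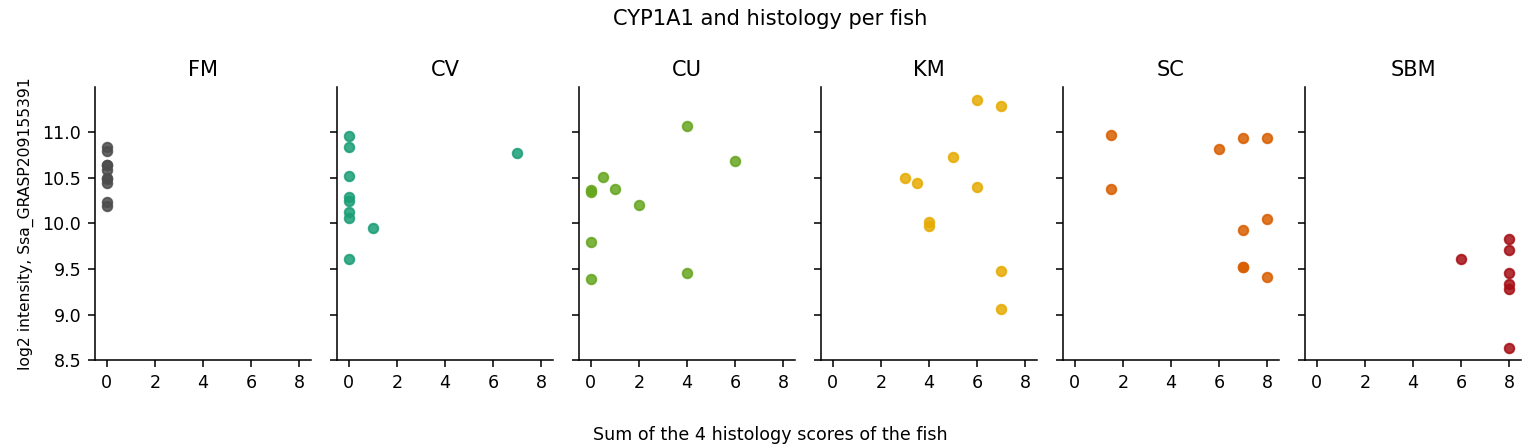
CYP1A1 (log2 intensity of Ssa_GRASP209155391, vertical) against the sum of the 4 histology scores (horizontal), 1 point per fish and 1 panel per diet. Fish with sums of 7 lie between 9.52 and 10.94 in SC and between 9.06 and 11.29 in KM. The SBM fish, with sums of 6 to 8, all lie at or under 9.83.

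The genes that act with CYP1A1 were taken from lists: parts of the AHR complex, other targets of the AHR, other cytochromes P450, and the electron donors and haem enzymes that P450s need. Probe names were known only for probes that the study had listed as changed in these fish, 2331 of those tested, so a count within a list is no independent evidence of a change. The AHR itself is not among the named probes. Of the AHR complex, 5 probes of 2 genes were named. The 4 probes of TEBP (prostaglandin E synthase 3, or p23), a co-chaperone that holds the AHR with HSP90, were all called above FM in SBM, by 0.52 to 0.69 on the log2 scale, and 3 of the 4 in SC, by 0.40 to 0.51. When the arrays were scaled by their 75th percentile instead of by quantiles, 1 of them was called in SC, and 2 were in the deposited table. ARNT2, a relative of the AHR partner ARNT, was called below FM in SC (log2 FC −0.57) and had −0.45 in SBM, where it was not called by the main rule but was called below FM with 75th percentile scaling and in the deposited table. Calls were made by the nested F-test of limma, adjusted by Benjamini-Hochberg, with an absolute log2 FC of at least 0.4. Over all probes this rule called 13.7% above and 8.62% below FM in SBM, and 13.2% above and 9.28% below in SC. The balance turned with 75th percentile scaling, to 1243 probes above and 1769 below in SBM and 1207 and 1392 in SC.

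Most probes of other AHR targets were below FM in both diets. Of 10 probes of 5 genes, 7 were called below FM in SBM and 8 in SC, beside 8.62% and 9.28% of all probes. Their median log2 FC was −0.72 and −0.67, beside 0.09 and 0.06 over all probes. SBM was lower than SC with 5 of the 10 probes and higher with 5, and these differences were not tested. Of the 5 probes of GSTA (glutathione transferase A), 3 were at −0.80 to −0.85 in SBM and −0.61 to −0.65 in SC. The remaining GSTA probes had the lower value in SC. They were at −0.75 and −0.13 in SBM and at −0.77 and −0.33 in SC, and the latter was called in neither diet. The probes of UD12 (UDP-glucuronosyltransferase 1-2), which attaches glucuronic acid to the products of phase I, fell by 0.68 and 0.57 in SBM and by 1.11 each in SC. NQO1, a quinone reductase, was at −0.20 in SBM and was called in SC (−0.68). For the 3 probes of UD12 and NQO1 the SC value was the lower one, by 0.43 to 0.54. GSTA4, a glutathione transferase, was at −0.97 in SBM and −0.94 in SC, and NF2L2 (NRF2), a factor that the AHR is known to induce in mammals, was called above FM in SC (0.77) but not in SBM (0.11).

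GSTA was called below FM in CU with all of its 5 probes (−0.48 to −0.57) and in KM with 4 (−0.56 to −0.60), whereas CYP1A1 was called in neither diet. The whole list of AHR targets had 5 probes called below FM in CU, 5 in KM, where GSTA4 was the other one, and 0 in CV, with backgrounds of 3.34%, 1.86% and 0.605% of all probes. GSTA probes can share transcripts of near-identical genes, so they are not separate genes. The other lists had 2 probes below FM in CU and 1 in KM among the P450s, and no AHR complex probe in either.

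Among the other cytochromes P450, 1 probe each of 10 genes was named. In SBM 6 were called below and 3 above FM, and in SC 6 below and 2 above, with medians of −0.72 and −0.56. Over all probes 8.62% were called below and 13.7% above in SBM, and 9.28% and 13.2% in SC, with medians of 0.09 and 0.06. These P450 probes were named only because the study had listed them as changed, so their counts are no independent evidence. CP26A (CYP26A1), which degrades retinoic acid, had values most like those of CYP1A1, at −1.08 (SE 0.33) in SBM and −0.25 (SE 0.30) in SC, and it was called in SBM alone. Its fish ranged from 9.46 to 10.52 in SBM, from 9.87 to 11.82 in SC and from 8.60 to 11.89 in FM, where the median was 11.46. The SBM and FM ranges of CP26A thus overlapped, unlike those of CYP1A1.

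CP2D6 and CP4V2, the latter a fatty acid hydroxylase, showed the reverse order. CP2D6 was at −1.56 in SC, where it was called, and at −0.71 in SBM, where it was not, and CP4V2 was called at −1.20 in SC and −0.73 in SBM. CP2CR (CYP2C27) was called at −1.87 in SBM and −1.56 in SC, and also at −1.37 in CU. CP3AR (CYP3A27), a xenobiotic oxidase first described in trout, CP2F1 and CP4B1 fell by 0.62 to 0.86 in SBM and by 0.55 to 0.58 in SC. The P450s called above FM were CP2J2, whose mammalian namesake oxidises arachidonic acid, CP2J6 and CP2K1. CP2J2 and CP2J6 were higher by 1.73 and 1.38 in SBM and by 1.64 and 1.14 in SC. CP2K1 was higher by 1.15 in SBM, a call lost with 75th percentile scaling. The call of CP3AR in SC was lost in the deposited table. CP2CR, CP2J6 and CP2K1 were dim, at mean log2 intensities of 6.05, 4.01 and 4.54 in FM. In SBM these were 4.18, 5.39 and 5.69. CP2J2 was above FM in every soybean diet, by 0.73 in CV, 0.80 in CU and 1.62 in KM, where its calls stand beside backgrounds of 9.99%, 2.02% and 9.3% above FM.

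The donors and haem enzymes moved in both directions. NCPR (NADPH-cytochrome P450 reductase), which feeds electrons to every microsomal P450, was called below FM in SC (−0.48) and in SBM (−0.40). CYB5 (cytochrome b5), a second donor, was called in SBM (−0.42) and was at −0.30 in SC. Neither was called in SBM with 75th percentile scaling. HEM1 (5-aminolevulinate synthase), the first enzyme of haem synthesis, was called above FM with both of its probes, by 0.80 and 1.17 in SBM and by 0.76 and 1.08 in SC. HEMH (ferrochelatase), which inserts iron into haem, was called in SC (0.50), though not with 75th percentile scaling, and was at 0.34 in SBM. Its probe was dim, at a mean log2 intensity of 3.74 in FM and 4.24 in SC.

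**Figure D5:**
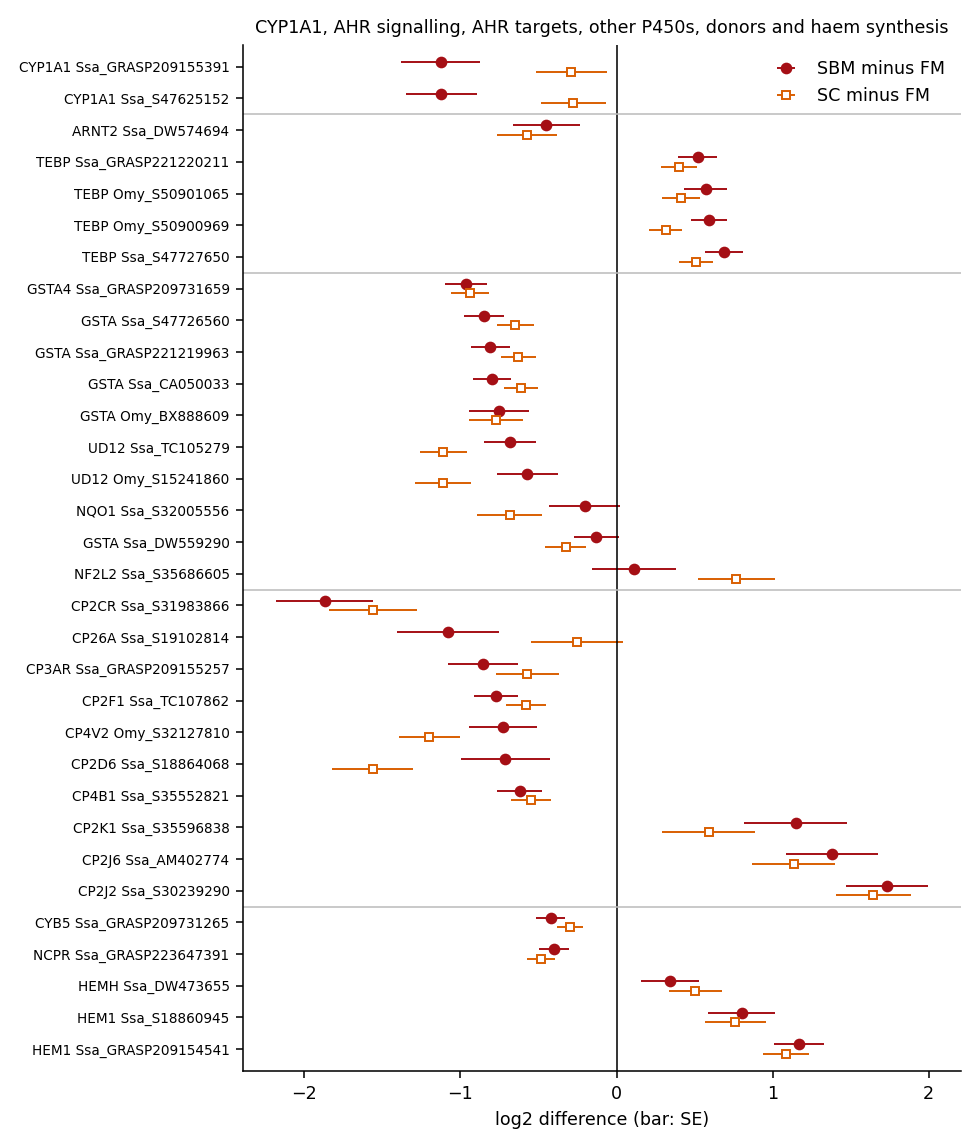
CYP1A1 and the genes named with it: log2 difference from FM in SBM (filled circles) and SC (open squares), with limma's SE, for CYP1A1 and, below it and separated by lines, AHR complex, AHR targets, other P450s, and donors and haem enzymes. The CYP1A1 circles and squares stand apart (−1.13 against −0.29), as do those of CP26A (−1.08 against −0.25).

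A fall in SBM with little change in SC was rare over the array. Of 252 probes with a log2 FC of −1 or lower in SBM, 11 were above −0.4 in SC. Beside both CYP1A1 probes, the named ones were CP26A, ZN180 (−1.12 and 0.52), KPCD1 (protein kinase D1, −1.02 and −0.07) and KLF11 (a Krüppel-like transcription factor, −1.002 and −0.25), while 5 had no name held here. The list was drawn from the contrasts that chose the gene and is a description. Of the 10 probes with the most negative SBM minus SC difference, all larger in size than that of CYP1A1, 5 were named. CHAC1, ATF5 and SERA, which belong to the cellular response to amino acid shortage, were above FM in SC by 1.47, 1.51 and 1.69. In SBM they were above it by less (0.09, 0.27 and 0.50). MUCM (membrane-bound Ig mu) had 0.70 in SC and −0.49 in SBM. In CHAC1, ATF5 and SERA the gap came with a higher SC level, and in CYP1A1 with a lower SBM level.

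The KEGG pathways that the study assigned to CYP1A1 were tryptophan metabolism, retinol metabolism and the metabolism of xenobiotics by cytochrome P450. The pathway lists hold only probes that the study found changed in these fish, so counts within them are no evidence of a change. Of 16 other probes listed for tryptophan metabolism, 13 were called below FM in SC and 9 in SBM, with 1 above in each. Over all probes 9.28% were called below FM in SC and 8.62% in SBM. KMO and I23O2, enzymes of the kynurenine branch whose products include AHR ligands in mammals, were called at −1.37 and −1.05 in SBM and at −1.40 and −1.49 in SC. ACMSD, also of this branch, was called at −0.86 in SBM and −1.14 in SC. Others of the branch, KYNU (0.0037), AADAT (−0.25) and AFMID (−0.36), were not called in SBM. In SC these 3 were called below FM, at −0.49, −0.45 and −0.46. KYNU was called above FM in CV (0.45) and KM (0.56), beside 9.99% and 9.3% of all probes. The median of all probes was itself 0.17 above FM in CV and 0.14 in KM. Of 11 probes for xenobiotic metabolism, 7 were called below and 2 above FM in both diets. Here GSTM3 and GSTP1, both glutathione transferases, were called at −0.71 and −0.94 in SBM and at −0.85 and −0.75 in SC.

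All 13 probes for retinol metabolism were again listed as changed by the study. In each diet 9 of the 13 were called below FM, beside 8.62% (SBM) and 9.28% (SC) of all probes. There was 1 called above in SBM and 2 in SC. The ones lower in SBM than in SC by over 0.4 were CP26A (−0.83), RD10A (retinol dehydrogenase 10, −0.74), LRAT, which stores retinol as esters (−0.55), and DHRS3, which reduces retinaldehyde to retinol (−0.48). LRAT was at −1.18 in SBM and −0.63 in SC, called in both, and DHRS3 at −0.72 in SBM, where it was called, and −0.24 in SC. RD10A was at −0.0033 in SBM and was called above FM in SC (0.73). These 4 were picked after their values were seen. RDH8, a retinol dehydrogenase, was at −1.53 in SBM and −1.70 in SC.

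The genes whose levels went most closely with CYP1A1 over the 57 fish were SESN1 (sestrin-1, r = 0.64), HES1B, a repressor downstream of Notch (r = 0.62), XPP2, an aminopeptidase that is anchored in the brush border in mammals (r = 0.59), PLCL2 (r = 0.57) and a probe with no name held here (r = 0.56). They are the probes with the highest positive Pearson's r with the first probe. With the diet means taken off, the closest were XPP2 (r = 0.59), an unnamed probe (r = 0.57), FABPI, the fatty acid-binding protein of enterocytes (r = 0.54), SESN1 (r = 0.51) and HES1B (r = 0.50). The second CYP1A1 probe gave 0.63, 0.57, 0.54, 0.49 and 0.41 for these. In the opposite direction, a HEM1 probe (Ssa_GRASP209154541), picked after its value was seen, had r = −0.55 within diets, and the other HEM1 probe had r = −0.11. The points share the array and its normalization, and the r values are descriptions. SESN1 was at −1.78 in SBM and −1.25 in SC, and XPP2 at −1.43 and −1.49.

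Markers of cell types were set beside CYP1A1. The named probes are ones the study listed as changed, so counts among them are no independent evidence. Of 7 probes of enterocyte genes, 5 were called below FM in SBM and 6 in SC, beside 8.62% and 9.28% of all probes. Among those called in both were FABPI, the peptide transporter S15A1 and the protease MEP1B. MTP was called in neither (0.16 in SBM and 0.02 in SC). It was called above FM in KM (0.46), beside 9.3% of all probes, whose median there was 0.14. APOA1 was called in SC (−0.70) but not in SBM (−0.44). The mean level of the 7 probes relative to FM was −1.03 in SBM, with fish from −1.52 to −0.11, and −1.22 in SC, with fish from −1.90 to −0.41. In CV, CU and KM it was −0.10, −0.11 and −0.06. The SBM minus SC difference of the single enterocyte probes lay between −0.14 and 0.57. Within diets the level of the list had r = 0.38 with CYP1A1 (57 fish, a description). The goblet cell gene FCGBP was at −2.98 in SBM and −2.75 in SC.

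Of 6 smooth muscle probes, 5 were called above FM in SC and 1 in SBM, beside 13.2% and 13.7% of all probes. The level of this list was 0.66 in SC (fish from 0.37 to 0.99) and 0.15 in SBM (fish from −0.31 to 0.57). In CV, CU and KM it was 0.55, 0.19 and 0.63, so the higher level was not particular to SC. With 5 of the 6 probes SBM was lower than SC, with differences of −0.75 to −0.54. The 3 leukocyte probes were HG2A (the HLA class II gamma chain) and IGHM and MUCM, both of the Ig mu chain. Of these 1, MUCM, was called above FM in SC, and 2 were called below in SBM, beside 8.62% of all probes. The list levels were 0.06 in SC (fish from −0.47 to 0.50) and −0.45 in SBM (fish from −1.03 to −0.17). In CV, CU and KM they were 0.13, −0.18 and 0.21. These probes are no measure of all leukocytes, which by the study's histology accumulated in the lamina propria with both diets. The endothelial probe PECA1 was at 0.59 in SC and 0.23 in SBM, and at 0.48 in CV, −0.07 in CU and 0.67 in KM. Within diets the smooth muscle and leukocyte levels had r = −0.10 and −0.02 with CYP1A1. The part of these cell types in the CYP1A1 difference was not tested. Markers of erythrocytes, liver and pancreas had no named probe and were not analysed here.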

How the data were processed

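The authors deposited background-subtracted spot intensities of every array, as given by Agilent Feature Extraction 10.7.1.1, and a table of normalized log2 values. In R 4.3.3 with limma 3.58.1, 536 control spots of 15377 were left out, spots not well above background or not uniform were set to missing, intensities were quantile normalized and log2 transformed, and probes missing on more than 15% of arrays were dropped. The 4245 missing values left (0.617%) were imputed from the 10 nearest probes. No CYP1A1 value was imputed. One limma model held all 57 arrays, with Benjamini-Hochberg adjustment over 12065 probes. Calls in lists used the nested F-test at 0.05 and an absolute log2 FC of 0.4, as in the study's methods. Permutation tests (SciPy 1.17.1) drew 100000 resamples and were two-sided. The fits were tested on simulated data.

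The members and lists were chosen with earlier results of these data known. Named were the CYP1A1 probes, the 5 with the highest r over fish and within diets, the 10 most negative in SBM minus SC, and members of the AHR, P450 and donor lists called in SBM or SC. Marker and pathway genes named besides were chosen after their values were seen.

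The deposited log2 table (12064 rows) was used as an alternative, and its rows were matched by spot number (lowest Spearman correlation with the scanner values 0.992). Its column medians lay between 8.12 and 8.32, so its scale is log2 without centring on genes. The study's methods describe processed values made from the same background-subtracted signals, filtered, quantile normalized and imputed. Fold changes and p-values of the study's own comparisons, held in its supplementary lists, were not used. The normexp alternative used the median spot signal, as the arrays give no mean signal. Same-numbered fish of different diets are different animals. The correlation of their deviations from the diet means with those of FM had a median of 0.16 in CU and 0.14 in SBM. It was −0.01 in CV, 0.04 in KM and 0.01 in SC. Same-numbered FM, SBM and CU fish shared a slide, apart from number 10, so the number marked the slide in these diets. The numbers were not treated as pairs, and the main model held no slide term. A slide block and a replicate block were among the alternatives. The number of arrays limits the precision.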

Additional observations from a re-analysis of the deposited data

Results flagged for a closer look

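In the SBM group the lowest fish stood apart from the others with the second CYP1A1 probe, at a log2 intensity of 9.11, while the next was at 9.78 and the highest at 10.22. The same fish was the lowest with the first probe, at 8.64 and with the next at 9.28, a gap that did not pass the same limit. Without this fish SBM minus FM was −0.999 and SBM minus SC −0.71 with the first probe. Groups tested in this way were 12, the 6 diets with each probe, and chance flags about 1 in 20 of such groups.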

How the results depend on the processing

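SBM minus FM lay between −1.21 and −0.97 under 13 alternatives and between −1.20 and −0.999 when single fish were left out. SC minus FM lay between −0.34 and −0.27 (single fish left out: −0.37 to −0.20), and SBM minus SC between −0.89 and −0.68 (−0.93 to −0.71). CV, CU and KM minus FM stayed uncalled under all alternatives (single fish left out: −0.27 to −0.12, −0.41 to −0.22 and −0.33 to −0.07), and so did the pairs CV-CU (0.02 to 0.21), CV-KM (−0.13 to 0.13) and CU-KM (−0.24 to 0.0114). Over 18 alternatives CV minus FM ran from −0.36 to −0.06, CU minus FM from −0.35 to −0.21 and KM minus FM from −0.35 to 0.72. The median of all probes against FM was 0.17 in CV, −0.01 in CU and 0.14 in KM. Taking it off gave the lowest of these values in CV and KM. With array column as a block, where SEs ran from 0.23 to 0.72, KM minus FM turned to 0.72 and CV minus KM to −0.77, and CU minus KM moved to −1.07. Taking the median of all probes off each diet turned CV-CU to −0.0615, CV-KM to −0.0159 and CU-KM to 0.0456. With the replicate block SBM minus FM was −1.18 and SBM minus SC −0.89, and no call changed. The histology r turned to −0.0621 in CU with the second probe and to 0.12 in KM with scan day means taken off, which moved r in CV from 0.31 to 0.69. The spread comparisons, all chosen after seeing the data, passed 0.05 in CV with 75th percentile scaling (a difference in mean distance of 0.223), the deposited table (0.205) and no filter on dim spots (0.215); in CU with 75th percentile scaling (0.252), no filter on dim spots (0.251) and the second probe (0.193); and in KM with 75th percentile scaling (0.452), the deposited table (0.434), no filter on dim spots (0.452), the second probe (0.373) and scan day medians taken off (0.369). With 75th percentile scaling the called probes were 2 of the AHR complex in SC and 2 of the donors in SBM, against 4 each, and both donor calls below FM in SBM were lost. Calls over all probes moved with the scaling: in CV 1205 were above and 73 below FM, against 252 and 323 with 75th percentile scaling and 461 and 173 in the deposited table, and in KM 1122 and 225, against 400 and 526, and 600 and 369. In CU they were 244 and 403, against 313 and 332 in the deposited table. In SBM they were 1650 and 1040, against 1243 and 1769 with 75th percentile scaling, and in SC 1595 and 1120, against 1207 and 1392. The causes were not tested.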
